A study of Mus musculus with 12 samples.

Results

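The interleukin 1 (IL-1) axis and its decoys were followed through RNA of CD11b dendritic cells (DCs). These are phagocytes that present antigen to T cells, here the subset with the integrin CD11b on its surface. The genes were chosen by symbol, with earlier results of these data known: Il1a, Il1b, Il1rn, Il1r1, Il1r2, Il1rap, Il18 and Il18bp. All 8 were among the 24391 gene symbols of the count table, and all 8 were among the 13221 genes that passed the filter on low counts. The series title places the cells in mice with pulmonary fibrosis.

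All groups were wild-type C57BL/6J mice of 8 to 12 weeks that had been given a replication-deficient adenovirus through the trachea. AdCL is the vector with no inserted gene, and AdTGFb1 is the vector with a porcine TGF-β1 gene whose product is active. The titles give 12 libraries in 4 groups of 3: AdCL in experiment 1 (DC 7, 8 and 9), AdTGFb1 in experiment 1 (DC 14, 52 and 54), AdCL in experiment 3 (DC 943, 944 and 949) and AdTGFb1 in experiment 3 (DC 954, 955 and 956). The sources used here do not say whether each library is a separate animal, so p-values measure the spread between libraries, which may be technical. They also give no organ, sort gate or time after the vector. By the sex-linked transcripts Xist and Ddx3y, DC 14 was male and DC 52 and 54 were female, so that group held more than 1 animal. Each other group was of 1 sex, so this cannot be told for them.

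IL-1α and IL-1β are cytokines that start inflammation through 1 shared receptor, made of the binding chain IL-1R1 and the co-receptor IL-1RAP. The pathway is held back at several levels. IL-1RN, the receptor antagonist, occupies IL-1R1 without signalling, and IL-1R2 is a decoy that binds IL-1 but lacks the signalling domain. IL-18 is a relative of IL-1β that drives interferon-γ production and is neutralised by the secreted IL-18 binding protein, IL-18BP. IL-1β and IL-18 are made as precursors that caspase-1 cuts, a step that RNA counts do not show.

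Promoter sequences are given for 4 genes: the neighbours Il1a and Il1b, and the genes with the largest fall (Il1r2) and the sole rise (Il18bp) among the 8. Each run spans 250 bases before to 50 bases after the start site, read 5′ to 3′ on the gene's strand, from RefSeq's GRCm38.p6 table. That is another build than the mm9 named for the counts. The table held 11 such windows for the 8 genes. Capitals mark matches to a TATA box (TATAAA, sense strand), AP-1 (TGANTCA), NF-kB (consensus by name), a gamma-activated site (TTCNNNGAA) or an interferon-stimulated response element (consensus by name), the last 4 on both strands.
Il1a, chr2:129309923-129310222, minus strand: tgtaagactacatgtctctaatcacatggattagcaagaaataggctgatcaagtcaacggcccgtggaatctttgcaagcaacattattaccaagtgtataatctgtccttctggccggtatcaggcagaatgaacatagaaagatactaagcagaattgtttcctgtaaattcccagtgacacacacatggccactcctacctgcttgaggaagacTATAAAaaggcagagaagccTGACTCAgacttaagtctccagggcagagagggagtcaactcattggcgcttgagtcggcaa
Il1b, chr2:129371090-129371389, minus strand: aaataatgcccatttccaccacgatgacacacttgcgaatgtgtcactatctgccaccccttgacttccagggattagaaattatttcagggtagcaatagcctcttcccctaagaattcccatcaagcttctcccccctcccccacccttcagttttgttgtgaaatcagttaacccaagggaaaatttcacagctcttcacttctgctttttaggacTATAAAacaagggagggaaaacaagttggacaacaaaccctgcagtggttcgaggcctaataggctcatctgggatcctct
Il1r2, chr1:40085843-40086142, plus strand: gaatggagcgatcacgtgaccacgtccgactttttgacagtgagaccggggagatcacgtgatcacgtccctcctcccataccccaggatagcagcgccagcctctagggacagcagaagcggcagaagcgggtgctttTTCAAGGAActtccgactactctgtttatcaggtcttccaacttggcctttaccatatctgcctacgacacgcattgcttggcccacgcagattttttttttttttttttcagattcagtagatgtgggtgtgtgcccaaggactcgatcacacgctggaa
Il18bp, chr7:102018183-102018482, minus strand: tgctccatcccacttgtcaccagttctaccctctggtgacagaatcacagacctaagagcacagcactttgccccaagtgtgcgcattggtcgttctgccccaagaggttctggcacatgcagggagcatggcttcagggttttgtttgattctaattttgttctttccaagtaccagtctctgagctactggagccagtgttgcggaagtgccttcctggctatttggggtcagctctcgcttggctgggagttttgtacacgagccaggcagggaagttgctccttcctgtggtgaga
The Il1a window held a TATA box that begins 32 bases before the start site and an AP-1 match 12 bases before it. The Il1b window held a TATA box 31 bases before the start site. The Il1r2 window held a gamma-activated site match 111 bases before the start site, and no searched motif was in the Il18bp window. Among all 32851 promoter windows of the table, 8.32% held the TATA box, 7.81% the AP-1 motif, 8.46% the NF-kB motif, 8.3% the gamma-activated site and 3.44% the interferon-stimulated response element. Such matches describe the letters of the window and are not shown to be binding sites.

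Library totals ran from 10099912 to 15594546 counts. All 9 DC markers, Itgax, Itgam and Zbtb46 among them, had reads in every group. Of 6 mast cell and basophil markers, Cpa3, Mcpt8, Fcer1a and Ms4a2 had no read in any group. Kit and Gata2 had reads in every group. The summed DC markers lay at 10108 to 11663 CPM (counts scaled to a common library size, TMM-adjusted) in AdCL and 7622 to 8393 CPM in AdTGFb1 of experiment 1, and at 10559 to 14395 and 8607 to 10770.3 CPM in experiment 3. H2-Ab1, at a mean of 6952 CPM, made up most of that sum. Of the 9 DC markers 6 fell over both experiments, against 10.4% of all genes called lower. Zbtb46 fell by 1.63, Flt3 by 1.30, Cd209a by 1.97, Irf4 by 1.36, Ccr7 by 1.69 and H2-Ab1 by 0.42 on the log2 scale, and Sirpa rose by 0.58. For Zbtb46, Flt3, Cd209a and Ccr7 the vectors did not overlap, as for 4.46% of all genes in that direction. These falls stand beside those of the 8 genes below, and their part in them was not tested. The 10 monocyte and macrophage markers summed to 3997 to 4494 CPM in AdCL and 7735 to 9844 CPM in AdTGFb1 of experiment 1, and to 5592 to 7165 and 7853 to 9423 CPM in experiment 3. Lyz2, at a mean of 3480 CPM, had the largest part in that sum. Of the 10, 8 rose over both experiments and 0 fell, against 6.78% of all genes called higher. Cd14 and Ly6c2 did not pass. For Fcgr1, Mertk, Csf1r and Ccr2 the vectors did not overlap, as for 1.86% of all genes in that direction. The part of this rise in the values of the 8 genes was not tested. Fewer cells of a type and less RNA per cell cannot be told apart in such bulk samples. By Xist and Ddx3y, 3 of 3 AdCL and 1 of 3 AdTGFb1 libraries of experiment 1 were male and all of experiment 3 were female.

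With AdTGFb1, 5 of the 8 genes fell (Il1a, Il1b, Il1rn, Il1r1 and Il1r2), Il18bp rose, and Il18 and Il1rap did not pass. Each was tested with edgeR over both experiments with the experiment as a term, at an adjusted p under 0.05. Of all 13221 genes 17.2% were called, 10.4% lower and 6.78% higher. A term for markers of other cells (neutrophil, T and NK, B, endothelial, epithelial, fibroblast and platelet genes) ended all 6 calls, and left 244 of 2271 calls among all genes. That score lay at 0.0722 to 2.02 in AdCL and -1.46 to 0.108 in AdTGFb1 libraries, so it moved with the vector, and their shares cannot be told apart. With that term the values were -0.87 ± 0.32 for Il1a (SE), -1.28 ± 0.43 for Il1r1, -0.96 ± 0.26 for Il1r2, -0.62 ± 0.38 for Il1b, -0.31 ± 0.28 for Il1rn and 1.08 ± 0.50 for Il18bp. All 6 kept their direction over both experiments, those of Il1a and Il1r1 nearly their size, and every SE was larger than without the term. Within experiment 1 they did not all do so: under that term Il18bp turned to -0.79, Il1b to 0.69 and Il1rn to 0.20. Il1a, Il1r1 and Il1r2 stayed lower there, and 0 of the 8 were called. Adding sex to the model left 5 of the 8 lower and 1 higher.

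**Figure D1:**
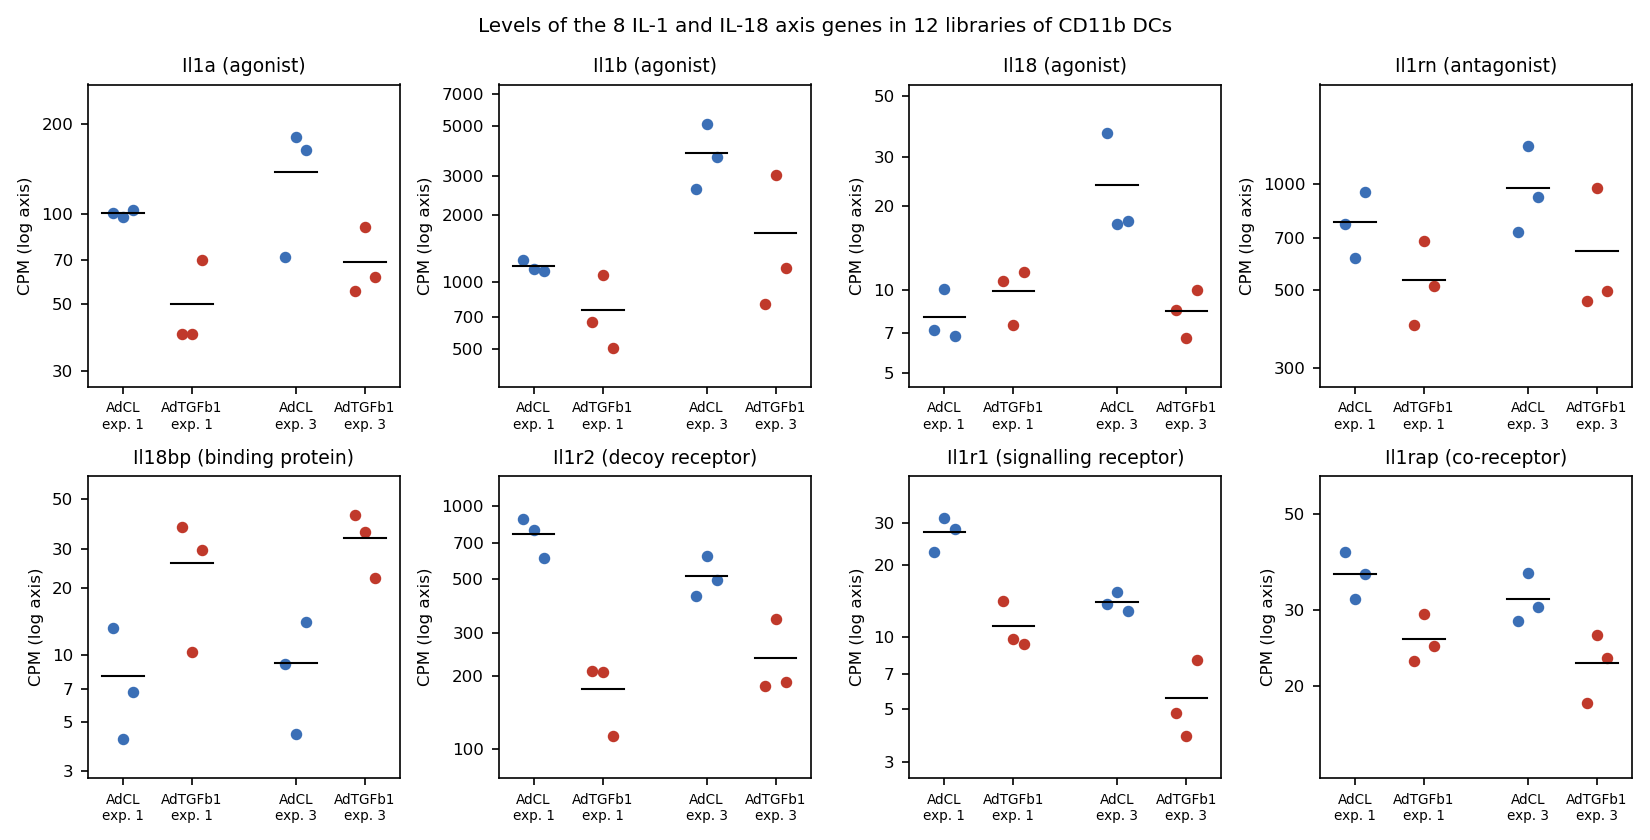
Each panel is 1 gene; the vertical axis gives its CPM (log scale) and the horizontal axis the 4 groups, blue without and red with the TGF-β1 gene. Points are libraries and black lines means of 3; for Il1r2 the 6 AdTGFb1 libraries, at 113 to 341 CPM, lay below the 6 AdCL libraries at 425 to 882 CPM.

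Scaled by exon length, Il1b was the most abundant of the 8 transcripts in AdCL, at 1303 ± 862 CPM per kilobase (SD, n = 6). It was followed by Il1r2 (334 ± 91.0), Il1rn (159 ± 41.8) and Il1a (60.6 ± 21.6), and Il18 lay at 15.4 ± 10.8. The 3 lowest, Il1r1 (3.27 ± 1.26), Il1rap (3.00 ± 0.41) and Il18bp (2.85 ± 1.42), did not differ from each other beyond their spread. In AdTGFb1 the order began with Il1b (631 ± 486 CPM per kilobase), and Il1r2 (108 ± 39.0) and Il1rn (106 ± 38.3) no longer differed beyond their spread. Il18bp (9.78 ± 3.88) and Il18 (8.87 ± 1.86) then lay side by side. Lengths are the union of exons in the GENCODE M21 annotation, so a gene with long alternative exons, such as Il1rn, is set low on this scale.

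Of the agonists, Il1a, an alarmin that acts without caspase-1, had 101, 97.6 and 103 CPM in AdCL DC 7, 8 and 9 and 39.8, 39.7 and 70.3 CPM in AdTGFb1 DC 14, 52 and 54. In experiment 3 it had 71.6, 181 and 163 CPM in AdCL DC 943, 944 and 949 and 55.2, 90.6 and 61.8 CPM in AdTGFb1 DC 954, 955 and 956. The groups were apart in experiment 1, as for 21.6% of all genes in that direction, while AdCL DC 943 lay among the AdTGFb1 libraries of experiment 3. The mean over both experiments was 119.6 ± 42.5 CPM with AdCL and 59.6 ± 19.4 CPM with AdTGFb1 (SD, 6 libraries each). Il1a thus fell by 1.01 ± 0.21 on the log2 scale (SE, edgeR adjusted p = 0.00219). It fell by 1.01 ± 0.27 in experiment 1 (adjusted p = 0.00947) and by 1.00 ± 0.27 in experiment 3 (adjusted p = 0.027), with a difference of 0.0044 and a 95% interval of -0.78 to 0.79. In experiment 3 the call was lost without DC 944 (-0.75, adjusted p = 0.174), DC 949 (-0.87, 0.114), DC 954 (-0.87, 0.116) or DC 956 (-0.93, 0.121).

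Il1b, the main secreted IL-1 of myeloid cells, was read at 1261, 1145 and 1120.4 CPM in the AdCL and 663, 1070.3 and 508 CPM in the AdTGFb1 libraries of experiment 1. For experiment 3 the values, in the same order of DC numbers as above, were 2606, 5126 and 3652 CPM in AdCL and 798, 3029 and 1156 CPM in AdTGFb1. AdTGFb1 DC 955 stood within the AdCL range of its experiment, and every library of experiment 1 was below every AdCL library of experiment 3. Means were 2485 ± 1644 CPM with AdCL and 1204 ± 926 CPM with AdTGFb1, and the log2 change of Il1b was -0.92 ± 0.26 (adjusted p = 0.0198). The fall passed in experiment 3 (-1.19 ± 0.33, adjusted p = 0.0299) and did not in experiment 1 (-0.65 ± 0.33, adjusted p = 0.153), although all 3 AdTGFb1 libraries lay below all 3 AdCL libraries there. Among all genes, 40.5% had no overlap of libraries in experiment 1. It did pass there without DC 52 (a fall by 1.00, adjusted p = 0.038) or DC 955 (-0.65, 0.0303), and with no filter on low counts (-0.65, 0.000137). The call over both experiments was lost without AdCL DC 944 (-0.74, adjusted p = 0.0632) and in the model without experiment (-1.05, adjusted p = 0.114). In experiment 3 it was lost without DC 944 (-0.90, adjusted p = 0.149), DC 949 (-1.22, 0.0501), DC 954 (-0.86, 0.127) or DC 956 (-0.99, 0.162), and with DESeq2 (-1.19, 0.14). Without DC 955 the log2 change there was -1.96 (adjusted p = 2.54e-05).

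Il18 was the agonist with the fewest reads, at 7.13, 10.1 and 6.79 CPM in AdCL and 10.8, 7.45 and 11.6 CPM in AdTGFb1 of experiment 1. The AdCL libraries of experiment 3 held 36.5, 17.3 and 17.6 CPM and the AdTGFb1 libraries 8.44, 6.71 and 9.97 CPM. Only the AdCL group of experiment 3 stood apart, above the other 9 libraries, and AdCL DC 943 was the highest of all. Over both experiments Il18 did not pass (-0.61 ± 0.37, 95% interval -1.37 to 0.16, adjusted p = 0.294). It fell in experiment 3 (-1.50 ± 0.41, adjusted p = 0.0268) and did not pass in experiment 1 (0.31 ± 0.41, adjusted p = 0.626). The difference between these effects missed the threshold in edgeR (-1.82 ± 0.57, adjusted p = 0.0611) and passed with DESeq2 (-1.78, adjusted p = 0.0302) and without DC 944 (-2.02, adjusted p = 0.0491). The call in experiment 3 was lost without DC 943 (-1.06, adjusted p = 0.23), DC 954 (-1.51, 0.0825), DC 955 (-1.37, 0.0971) or DC 956 (-1.65, 0.0627).

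**Figure D2:**
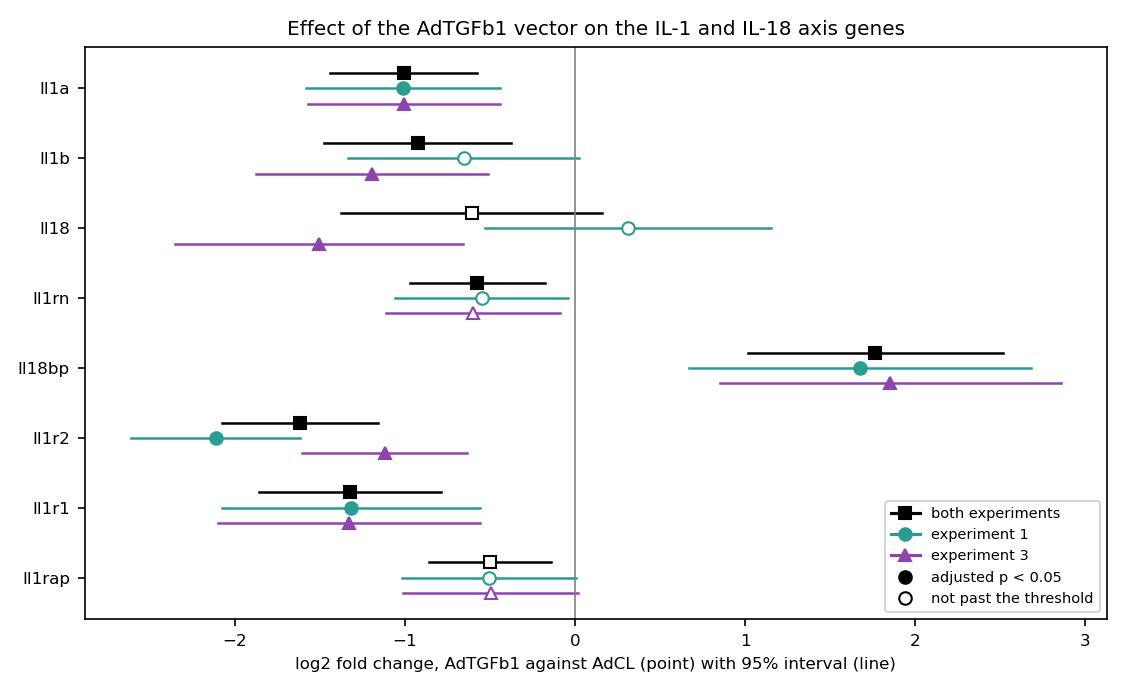
Log2 fold change of AdTGFb1 against AdCL (points) with its 95% interval (lines) for each gene, over both experiments (black squares), in experiment 1 (green circles) and in experiment 3 (purple triangles); filled points passed an adjusted p of 0.05. Il18bp lies to the right at 1.77 over both experiments and Il1r2 farthest to the left at -1.61, and the Il18 points fall on both sides of 0.

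Among the soluble inhibitors, Il1rn, the receptor antagonist, had 771, 618 and 947 CPM in AdCL and 398, 689 and 513 CPM in AdTGFb1 of experiment 1. The experiment 3 libraries held 729.6, 1278 and 921 CPM in AdCL and 466, 975 and 495 CPM in AdTGFb1. The vectors overlapped in both experiments, through DC 52 in the first and DC 955 in the second. Means were 877 ± 231 CPM with AdCL and 589 ± 212 CPM with AdTGFb1, and the log2 change of Il1rn was -0.57 ± 0.19 (adjusted p = 0.0442). It passed neither in experiment 1 (-0.55 ± 0.25, adjusted p = 0.109) nor in experiment 3 (-0.60 ± 0.25, adjusted p = 0.178). This call sits at the threshold: DESeq2 did not make it (adjusted p = 0.0795), nor did the model without experiment (0.0756), and it was lost without DC 7 (0.0823), 9 (0.122), 14 (0.11), 54 (0.0788), 944 (0.144), 949 (0.0642), 954 (0.096) or 956 (0.0938). The fall passed in experiment 1 without DC 52 (-0.77, adjusted p = 0.0378) or DC 955 (-0.54, 0.042), and in experiment 3 without DC 955 (-1.02, 0.00462). With no filter on low counts it passed in both (adjusted p = 0.00279 and 0.00202). Counts per gene do not separate the secreted from the intracellular forms of the antagonist.

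Il18bp, the secreted neutraliser of IL-18 and a gene known to be induced by interferon-γ, went the other way. AdCL libraries held 13.2, 4.18 and 6.79 CPM in experiment 1 and 9.14, 4.4 and 14.1 CPM in experiment 3. AdTGFb1 libraries held 37.4, 10.2 and 29.6 CPM in experiment 1 and 42.4, 35.6 and 22.2 CPM in experiment 3. All AdTGFb1 libraries but DC 52 were above every AdCL library. Means were 8.63 ± 4.29 CPM with AdCL and 29.6 ± 11.7 CPM with AdTGFb1. The rise was 3.4-fold, or 1.77 ± 0.36 on the log2 scale (adjusted p = 0.00206). It rose in experiment 1 (1.68 ± 0.48, adjusted p = 0.0139) and in experiment 3 (1.85 ± 0.48, adjusted p = 0.0201). The first of these calls was lost without DC 8 (1.4, adjusted p = 0.054) or DC 14 (1.31, 0.0784), and the second without DC 944 (1.53, 0.0998) or DC 954 (1.65, 0.0809).

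With the term for markers of other cells the Il18bp effect in experiment 1 turned to -0.79 (adjusted p = 0.714). Il18bp shares 80 exon bases with Numa1 on the opposite strand. Numa1 had 139 to 396 CPM and rose by 0.67 ± 0.11 (adjusted p = 0.000404). The strand setting of the counting is not given in the sources used here, so the part of Numa1 reads in the Il18bp counts was not tested. The summed monocyte and macrophage markers rose with the vector as given above, and their part was not tested either.

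Il1r2, the decoy receptor, was the second most abundant of the 8 genes in AdCL per kilobase and showed the largest fall. In experiment 1 it had 882, 792 and 607 CPM with AdCL and 209, 206 and 113 CPM with AdTGFb1. In experiment 3 it had 425, 622 and 494 CPM with AdCL and 182, 341 and 188 CPM with AdTGFb1. The vectors did not overlap, each of the 6 AdTGFb1 libraries being lower than all AdCL libraries, as for 4.46% of all genes, while 6.32% did not overlap in either direction. Means were 637 ± 174 CPM with AdCL and 206 ± 74.5 CPM with AdTGFb1. The level was 3.06-fold lower, or -1.61 ± 0.22 on the log2 scale (adjusted p = 5.5e-05). The fall was -2.11 ± 0.24 in experiment 1 (adjusted p = 1.33e-06) and -1.12 ± 0.23 in experiment 3 (adjusted p = 0.00414). The difference between the experiments was 0.99 ± 0.33, with a 95% interval of 0.32 to 1.67, and missed the threshold (adjusted p = 0.072). That difference passed without DC 14 (1.13, adjusted p = 0.0474), DC 944 (1.13, 0.0337) or DC 954 (1.15, 0.0367), and with no filter on low counts (0.99, 0.000256). The calls over both experiments and within each held without any single library, the highest adjusted p being 0.0353 in experiment 3.

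Neutrophils are also known to carry the decoy receptor and Il1b, and their 9 markers in the table did not move alike. S100a9 averaged 13.9 CPM in AdCL and 0.19 CPM in AdTGFb1 of experiment 1, and 18.6 and 2.40 CPM in experiment 3, a fall of -4.23 on the log2 scale (adjusted p = 0.000152). Csf3r, which macrophages also express, rose by 0.61 (adjusted p = 0.0275) and made up most of the sum. That sum was 41.7 to 52.8 CPM in AdCL and 47.6 to 60.1 CPM in AdTGFb1 of experiment 1, and 70.1 to 94.0 and 65.2 to 80.0 CPM in experiment 3. Of 7 tested markers 1 rose and 1 fell over both experiments, against 6.78% and 10.4% of all genes. In experiment 3, 3 (S100a8, S100a9 and Cxcr2) fell, against 4.46% of all genes. In experiment 1 S100a9 fell, and Mmp8 rose by 5.03 on the log2 scale (adjusted p = 0.00902), from a mean of 0.166 to 5.69 CPM. Camp had no read in any group. S100a9, Csf3r, S100a8, Cxcr2 and Mmp8 were named after their values were seen. The part of neutrophil RNA in the Il1r2 and Il1b values was not tested.

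Il1r1, the chain that signals, was scarce. It was read at 22.7, 31.5 and 28.5 CPM in AdCL and 14.1, 9.81 and 9.35 CPM in AdTGFb1 of experiment 1, and at 13.8, 15.4 and 12.9 and 4.82, 3.83 and 8.03 CPM in experiment 3. The vectors were apart within each experiment, as for 21.6% of all genes in experiment 1 and 12.9% in experiment 3 in that direction. AdTGFb1 DC 14 of experiment 1 overlapped AdCL of experiment 3. Means were 20.8 ± 8.00 CPM with AdCL and 8.32 ± 3.72 CPM with AdTGFb1. The level was 2.5-fold lower, or -1.32 ± 0.25 on the log2 scale (adjusted p = 0.00131). The change was alike in size in experiment 1 (-1.32 ± 0.37, adjusted p = 0.0109) and experiment 3 (-1.33 ± 0.37, adjusted p = 0.0315), with a difference of -0.01 and a 95% interval of -1.01 to 0.99. The experiment 1 call was lost without DC 52 (-1.23, adjusted p = 0.0504) or DC 54 (-1.20, 0.057) and once sex was in the model (-0.97, 0.284). The experiment 3 call was lost without DC 943 (-1.34, adjusted p = 0.0575), 944 (-1.23, 0.124), 949 (-1.38, 0.064), 954 (-1.23, 0.12) or 955 (-1.12, 0.133).

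Endothelial cells and fibroblasts are known to carry Il1r1. The 10 endothelial markers summed to 218 to 641 CPM in the AdCL libraries of experiment 1 and to 65.2 to 85.0 CPM in AdTGFb1. In experiment 3 the sums were 78.5 to 131 CPM in AdCL and 118 to 175 CPM in AdTGFb1. Of the 10, 9 fell in experiment 1 and 0 in experiment 3, against 14.1% and 4.46% of all genes called lower. The 7 fibroblast markers summed to 89.2 to 204 and 21.7 to 70.1 CPM in experiment 1, and to 19.2 to 39.3 and 26.7 to 75.1 CPM in experiment 3. The part of endothelial and fibroblast RNA in the Il1r1 values of either experiment was not tested.

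Il1rap, the co-receptor shared with IL-33 and IL-36, varied least. Its levels were 40.9, 31.7 and 36.4 CPM in AdCL and 22.9, 29.3 and 24.7 CPM in AdTGFb1 of experiment 1, and 28.3, 36.6 and 30.4 and 18.3, 26.2 and 23.2 CPM in experiment 3. Within each experiment the 3 AdTGFb1 libraries were below the 3 AdCL libraries, as for 40.5% of all genes in experiment 1 and 24.4% in experiment 3 in either direction. The log2 difference of -0.50 ± 0.17 (95% interval -0.86 to -0.14) just missed the threshold in edgeR (adjusted p = 0.0519) and passed with DESeq2 (-0.50, adjusted p = 0.0335). Counts per gene do not separate the membrane form from the soluble one.

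Read ratios within a library do not depend on its scaling, and are given as description with no test. The antagonist had 0.249 to 0.28 reads per read of Il1b in AdCL of experiment 3 and 0.322 to 0.583 with AdTGFb1, without overlap. In experiment 1 the ranges of 0.54 to 0.845 and 0.599 to 1.01 overlapped. Il18bp had 0.416 to 1.86 reads per read of Il18 in AdCL and 1.38 to 3.48 in AdTGFb1 of experiment 1, and 0.25 to 0.798 against 2.23 to 5.31 in experiment 3. The decoy receptor had 21.3 to 38.8 reads per read of Il1r1 in AdCL and 12.1 to 21.0 in AdTGFb1 of experiment 1, and 30.9 to 40.4 and 23.4 to 89.0 in experiment 3, where the ranges overlapped. For Il1b per read of Il1a the AdCL libraries ran from 10.8 to 12.5 in experiment 1 and from 22.4 to 36.4 in experiment 3, and the AdTGFb1 libraries from 7.22 to 26.9 and from 14.5 to 33.4.

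**Figure D3:**
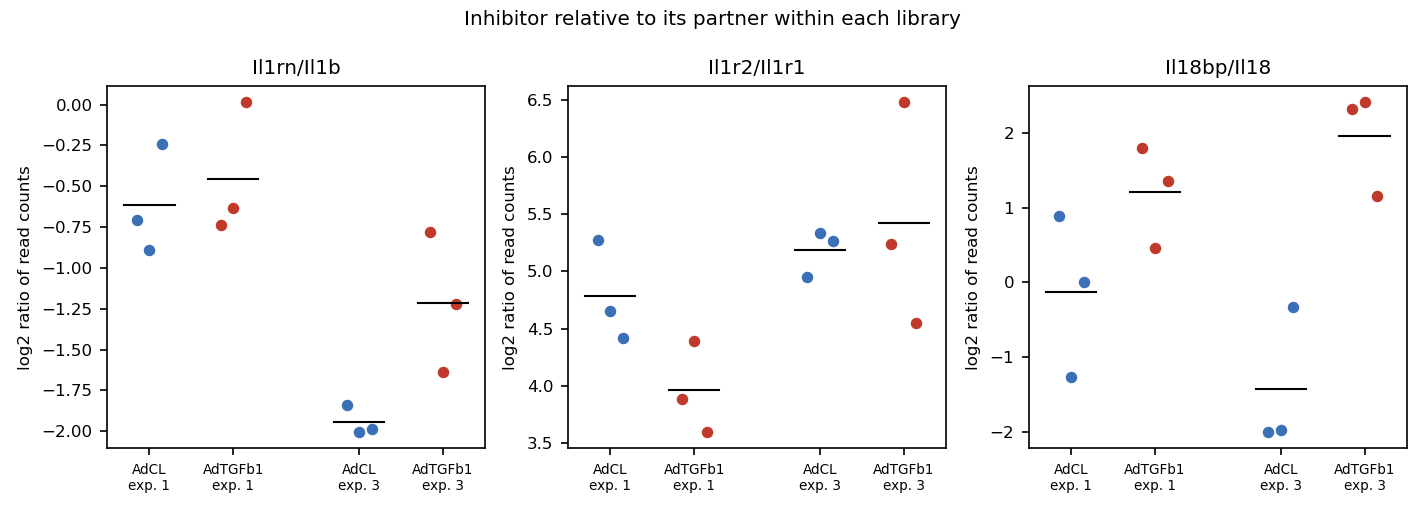
Log2 ratio of read counts within each library for Il1rn to Il1b, Il1r2 to Il1r1 and Il18bp to Il18, by vector and experiment; each point is 1 library (AdCL blue, AdTGFb1 red) and each line the mean of 3. In experiment 3 the Il18bp to Il18 ratio averaged -1.43 in AdCL and 1.96 in AdTGFb1, with no overlap.

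Experiment 3 was also compared with experiment 1 over both vectors. Il1b was higher in experiment 3 (1.42 ± 0.27 on the log2 scale, adjusted p = 0.0033) and Il1r1 lower (-0.98 ± 0.25, adjusted p = 0.0246), so 2 of the 8 genes were called, against 6.43% of all genes (3.57% higher and 2.86% lower). Il1a (0.47 ± 0.20, adjusted p = 0.204) and Il18 (0.66 ± 0.37, adjusted p = 0.34) did not pass. Once sex was in the model neither call held (Il1b 1.14, adjusted p = 0.12, and Il1r1 -0.72, adjusted p = 0.372). That of Il1r1 was also lost without DC 8 (0.0633), 9 (0.0537), 14 (0.0631), 949 (0.0671) or 955 (0.0543), and Il1a passed without DC 943 (0.61, 0.0386). The vector's effect differed between experiments for 0 of the 8 genes in edgeR's quasi-likelihood test with Benjamini-Hochberg adjustment, against 6.02% of all genes (3.43% higher and 2.59% lower). At an unadjusted p under 0.05 there were 2, Il1r2 and Il18, and DESeq2 called 1, Il18. Without DC 955 the interaction of Il1b passed (-1.31, adjusted p = 0.0171).

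Within experiment 1, 4 of the 8 genes were called, 3 lower and 1 higher, against 24.7% of all genes (14.1% lower and 10.6% higher). Within experiment 3, 6 were called, 5 lower and 1 higher, against 6.43% of all genes (4.46% lower and 1.97% higher). In experiment 3 the count of the 8 fell to 2 without DC 944, 3 without DC 949, 1 without DC 954 and 3 without DC 956. The genes called in both were Il1a, Il1r1, Il1r2 and Il18bp, in the same direction each time. Because the 8 were chosen with earlier results known, their counts against all genes, here and above, are a description.

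The genes that process and release IL-1β and IL-18 moved in both directions. Of 18 genes, 2 rose, 4 fell and 12 did not pass, with a median log2 fold change of 0.12 against -0.002 over all genes. Of all genes 6.78% were called higher and 10.4% lower. In experiment 1, 3 of the 18 rose and 4 fell, and in experiment 3, 1 rose and 2 fell. Nlrp3, the sensor of the main inflammasome, fell by 1.03 ± 0.18 (adjusted p = 0.000506), but the effect differed between experiments, at -1.60 in experiment 1 and -0.45 in experiment 3 (adjusted p = 0.0642), with an interaction of 1.15 (adjusted p = 0.00167). Mefv, the pyrin sensor, fell by 1.46 ± 0.13 (adjusted p = 1.03e-06). Casp4, mouse caspase-11, fell by 1.22 ± 0.18 (adjusted p = 9.62e-05), and Ninj1, which ruptures dying cells, by 0.69 ± 0.13 (adjusted p = 0.00114). The 2 that rose were Nek7 (0.67 ± 0.16, adjusted p = 0.0079) and Capn1 (0.89 ± 0.22, adjusted p = 0.00806), named after their values were seen. Both passed in experiment 1 and neither in experiment 3 (0.34, adjusted p = 0.402, and 0.23, adjusted p = 0.625). For Nlrp3, Mefv and Casp4 no AdTGFb1 library reached the lowest AdCL library, as for 4.46% of all genes. Casp1, the enzyme that cuts both precursors, did not pass (0.23 ± 0.21, adjusted p = 0.515), nor did Gsdmd, the pore through which IL-1β leaves (0.12 ± 0.13, adjusted p = 0.579). These last 2 genes were looked up for their roles, outside the rule for named genes.

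Of 19 genes of IL-1 receptor signalling, 6 fell, 0 rose and 13 did not pass, with a median of -0.32. Of all genes 10.4% were called lower and 6.78% higher. In experiment 1, 8 of the 19 fell and 2 rose, against 14.1% and 10.6% of all genes. In experiment 3, 2 fell and 0 rose, against 4.46% and 1.97%. The NF-κB subunits Nfkb1 and Rela fell by 1.00 ± 0.12 (adjusted p = 1.56e-05) and 0.90 ± 0.16 (adjusted p = 0.000759), and the kinase Ikbkb by 0.80 ± 0.12 (adjusted p = 0.000116). Rela was at -1.40 in experiment 1 and -0.41 in experiment 3 (adjusted p = 0.124), with an interaction of 0.996 (adjusted p = 0.0062). Tollip, an adaptor that restrains the receptor, fell by 0.68 ± 0.15 (adjusted p = 0.00415), a call lost in the model without experiment (-0.73, adjusted p = 0.0515). Of 15 tested genes that IL-1 is known to induce, 9 fell and none rose in edgeR, with a median of -0.58. The shares of all genes are those just given. In experiment 1, 9 of the 15 fell and 1 rose, and in experiment 3, 3 fell and 0 rose. Tnfaip3, a brake on NF-κB, fell by 1.00 ± 0.15 (adjusted p = 0.000133), Il6 by 1.73 ± 0.27 (adjusted p = 0.000232), Nfkbia by 0.87 ± 0.16 (adjusted p = 0.000898) and Bcl3 by 0.81 ± 0.15 (adjusted p = 0.00114). Nfkbia was at -1.29 in experiment 1 and -0.44 in experiment 3 (adjusted p = 0.109), with an interaction of 0.84 (adjusted p = 0.0273). Many of these genes also answer to other signals.

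Of 15 tested genes that interferon-γ is known to induce, as it does Il18bp, 13 rose, none fell and 2 did not pass, with a median of 1.07. Of all genes 6.78% were called higher. Within experiment 1, 10 of the 15 rose and 0 fell, against 10.6% of all genes called higher. Within experiment 3, 10 rose and 0 fell, against 1.97%. Irf8, a transcription factor, rose by 1.16 ± 0.12 (adjusted p = 4.03e-06), and Cxcl9, a T cell chemokine, by 2.18 ± 0.34 (adjusted p = 0.000194). The GTPases Gbp3 and Gbp7, whose family has near-identical members, had log2 changes of 1.07 ± 0.15 (adjusted p = 8.98e-05) and 1.56 ± 0.23 (adjusted p = 9.56e-05). The lists were drawn up with earlier results of these data known, so their directions are a description. Under the other-cell term the calls of Mefv, Casp4, Nfkb1, Il6, Irf8, Gbp3 and Gbp7 were kept. Those of Nlrp3, Ninj1, Ikbkb, Rela, Tollip, Tnfaip3, Nfkbia, Bcl3 and Cxcl9 were lost, with values that differed in how far they moved. Bcl3 was at -0.80 and Tollip at -0.56, Tnfaip3 at -0.68, Rela at -0.55, Ikbkb at -0.51, Nlrp3 at -0.47, Nfkbia at -0.46, Ninj1 at -0.37 and Cxcl9 at 1.22, all in the same direction as without the term.

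**Figure D4:**
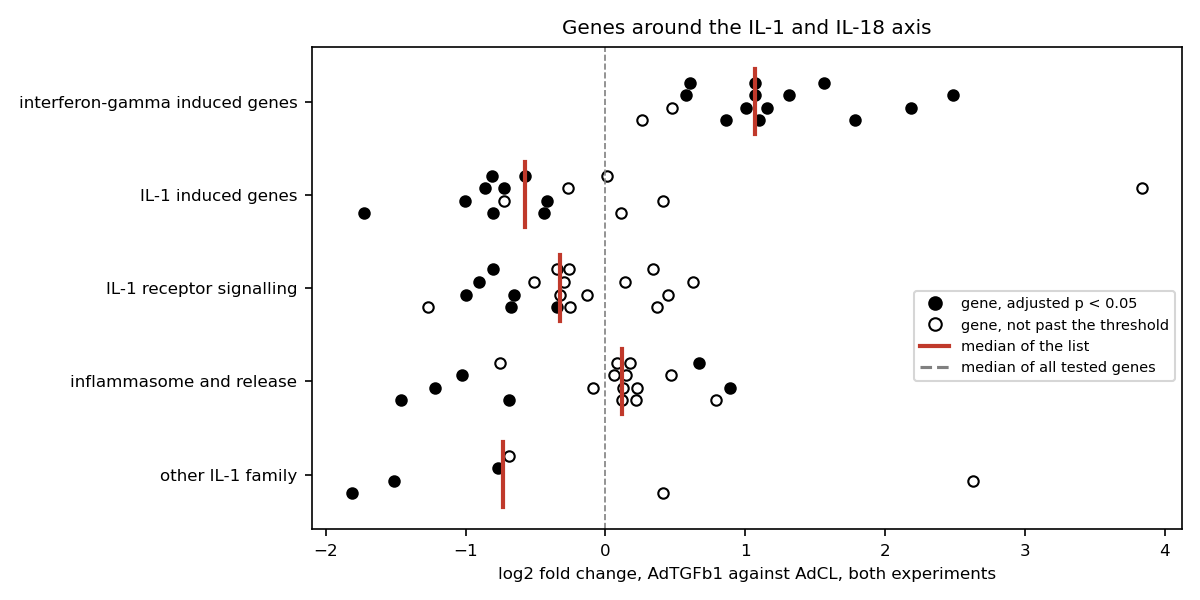
Log2 fold change of AdTGFb1 against AdCL over both experiments for the tested genes of 5 lists around the axis; each circle is 1 gene (filled where the adjusted p was under 0.05), red bars are list medians and the dashed line is the median of all tested genes. The interferon-γ list has its median at 1.07 and the IL-1 induced list at -0.58.

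Receptors of the wider IL-1 family sit beside Il1r2 and Il1r1 on the same chromosome, in the RefSeq order Il1r2, Il1r1, Il1rl2, Il1rl1, Il18r1 and Il18rap. Of these 6 neighbours 5 fell with AdTGFb1, against 10.4% of all genes called lower. The 5 include Il1r2 and Il1r1, whose falls are already given above. The count is a description with no test of the cluster. Il18r1, the binding chain for IL-18, fell by 1.82 ± 0.39 (adjusted p = 0.00306), with no overlap of the vectors, as for 4.46% of all genes. Its partner Il18rap fell by 1.51 ± 0.27 (adjusted p = 0.000665). Il1rl1, the receptor for IL-33, fell by 0.77 ± 0.21 (adjusted p = 0.0136), a call lost without DC 944 (-0.61, adjusted p = 0.0537). That fall passed in experiment 3 (-1.14 ± 0.26, adjusted p = 0.00748) and did not in experiment 1 (-0.40 ± 0.26, adjusted p = 0.271). Il1rl2, the receptor for IL-36, did not pass (0.41 ± 0.38, adjusted p = 0.521). Il1rl2 rose in experiment 1 (1.33 ± 0.42, adjusted p = 0.0251) and was at -0.49 ± 0.41 in experiment 3 (adjusted p = 0.607). Its interaction of -1.82 missed the threshold (adjusted p = 0.0687). With the term for markers of other cells the calls of Il18r1 (-2.02 ± 0.64, adjusted p = 0.123), Il1rl1 (-1.04 ± 0.32, adjusted p = 0.118) and Il18rap (-0.93 ± 0.37, adjusted p = 0.245) were lost. The first 2 values were larger in size than without the term, with larger SEs.

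Next to Il1r2 on the other side, Map4k4, a kinase gene, fell by 1.59 ± 0.15 (adjusted p = 1.61e-06), while Slc9a4, which follows Il18rap, did not pass (-0.08 ± 0.25, adjusted p = 0.868). Beyond these, Mfsd9 had a mean of 0.419 CPM and did not pass, and Rfx8, Gm3646 and Slc9a2 did not reach the filter on low counts. These flanking genes were looked up for their position, outside the rule for named genes. The IL-18 receptor chains are also known from T and NK cells, whose 8 markers summed to 2.98 to 5.57 CPM in AdCL and 0.788 to 6.36 CPM in AdTGFb1 of experiment 1, and to 6.30 to 18.2 and 1.09 to 4.47 CPM in experiment 3. Gzma and Ncr1 were at 0 in AdTGFb1 of experiment 1 and Nkg7 in AdTGFb1 of experiment 3. Klrb1c went the other way in experiment 1, from a mean of 0.166 to 1.80 CPM. So did Ncr1 in experiment 3, from 0.0447 to 0.453 CPM. Of 5 tested markers 1 fell and 0 rose over both experiments, against 10.4% of all genes called lower. Gzma, Ncr1, Nkg7 and Klrb1c were named after their values were seen. The part of T and NK cell RNA in the receptor values was not tested. Other ligands of the family were scarce: Il33 averaged 0.923 CPM and Il1f9, now called Il36g, 0.851 CPM, and Il1f5, Il1f6, Il1f8 and Il1f10 did not reach the filter.

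The remaining marker lists are given in the order AdCL and AdTGFb1 of experiment 1, then of experiment 3. Alveolar macrophage markers summed to 89.5 to 199 and 1196 to 2439 CPM, then 236 to 677 and 101 to 136 CPM. Mast cell and basophil markers, all of it Kit and Gata2, summed to 165 to 276 and 45 to 70.8 CPM, then 131 to 171 and 94.3 to 115 CPM. Of these Kit, at a mean of 128 CPM, fell by 1.27 on the log2 scale over both experiments (edgeR adjusted p = 0.000437). Gata2 did not pass (adjusted p = 0.382). Epithelial markers summed to 106 to 426 and 160.1 to 293 CPM, then 102 to 138 and 78.1 to 121 CPM. Platelet markers summed to 42.1 to 63.0 and 17.0 to 28.5 CPM, then 39.6 to 47.1 and 30.0 to 36.5 CPM. Markers of CD103 DCs summed to 92.7 to 127 and 44.5 to 96.0 CPM, then 61.0 to 95 and 132 to 192 CPM, and those of B cells reached at most 10.8 CPM in any library. Their part in the values of the 8 genes was not tested.

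**Figure D5:**
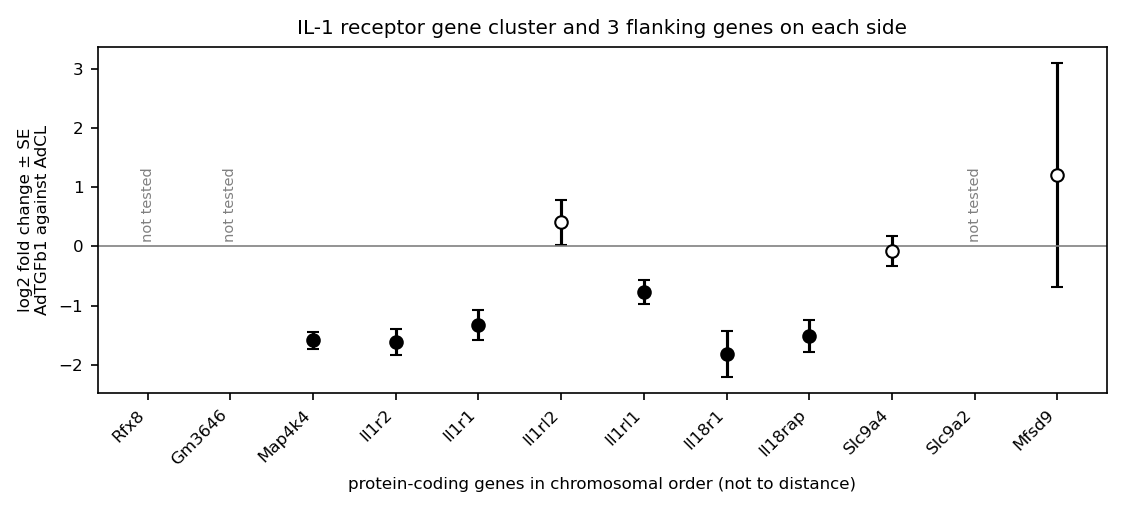
Log2 fold change ± SE of AdTGFb1 against AdCL over both experiments for the 6 IL-1 receptor family genes and 3 protein-coding neighbours on each side, in chromosomal order and not to distance. Filled points passed an adjusted p of 0.05; the points from Map4k4 to Il18rap lie between -1.82 and -0.77 except that of Il1rl2, at 0.41.

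The genes most like each of the 8 across the libraries were found by Pearson's r of log2 CPM over the 12 libraries, among 9177 other genes with at least 5 CPM. The libraries share vector and experiment groups, so r describes likeness of pattern only. Il1r2 was most like Foxp1 (0.981), Mast4 (0.977) and Usp16 (0.97). Il1a was most like Bcl2a1a (0.963), a gene with near-identical copies, Rab20 (0.927) and Batf (0.906). Il1rap was closest to Iws1 (0.963), Arl2bp (0.942) and Odc1 (0.938), and Il1r1 to Nktr (0.951), Eid3 (0.948) and Riok3 (0.938). Il1b was closest to Nfe2l2 (0.917), Gatsl3 (0.894) and Rasgrp4 (0.892), and Il1rn to Vasp (0.875), Il1bos (0.864) and Cd14 (0.862). Il18bp was closest to Eif4e3 (0.917), Irf7 (0.916) and Heatr5a (0.901), and Il18 to Ntng2 (0.851), Slc4a11 (0.833) and Tubgcp2 (0.818). Il1bos shares 25 exon bases with Il1b on the opposite strand, at 0.279 to 16.3 CPM.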

How the data were processed

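Poly(A)-enriched RNA of 12 CD11b DC libraries was sequenced after a directional preparation, per the labels' protocols. The deposited values are raw read counts per gene symbol, 1 column per library, matched to samples by the code in each description. Per the submitters' processing notes, which give no role or order, the tools include STAR 2.5.0c, HTSeq, DESeq2 and cutadapt 1.9.1, and the build is mm9. Annotation and strand setting: not given in the sources used here, so overlapping genes are treated as uncertain.

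Counts were tested with edgeR 4.0.16 (R 4.3.3): filterByExpr on the 4 groups, TMM, and the quasi-likelihood F test, two-sided, with Benjamini-Hochberg adjustment over 13221 genes. An additive model (experiment and vector) and a 4-group model were used. SE is the effect over the root of F. CPM uses TMM-scaled sizes, and 3 counts equal 0.181 to 0.31 CPM. Alternatives were DESeq2 1.42.0, RLE size factors, no filter, at least 1 CPM in 6 libraries, terms for sex or for 43 other-cell markers, no experiment term, plain totals for CPM, and leaving out each library. The edgeR tests were also run on simulated counts, drawn with the dispersions fitted to these data and with no effect of experiment, sex or other cells. That simulation therefore does not show how the tests behave under such effects. Libraries of 1 group differed beyond sampling noise in every pair. The 8 genes and the lists (5 pathway, 12 marker) were chosen with earlier results of these data known. Genes named are the 8, up to 4 per pathway list by adjusted p with at least 1 CPM, and the 3 most alike per gene; others are said to be chosen after their values were seen or for role or position.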

Additional observations from a re-analysis of the deposited data

How the results depend on the processing

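RLE size factors and the filter of at least 1 CPM in 6 libraries changed no call among the 8 genes. The causes of the changes below were not tested. The term for markers of other cells left 244 genes over both experiments, 3.0e+02 in experiment 1 (100 higher and 199 lower), 495 in experiment 3 and 211 for the interaction, and 0, 0 and 1 of the 8 for the first 3. With it Il18bp in experiment 1 reversed to -0.79. Of 728 values of the 8 genes under alternatives, 45 others changed sign with no call in either fit, among them Il1b (0.69) and Il1rn (0.20) in experiment 1 under that term. A term for sex gave 1501 genes over both experiments, 1296 in experiment 1, 157 for the interaction, and 547 genes and 0 of the 8 for experiment 3 against 1. DESeq2 gave 1286 genes and 1 of the 8 for the interaction and 1346 genes for experiment 3 against 1. No filter gave 1222 genes and 1 of the 8 for the interaction. Leaving out 1 library gave 498 to 871 genes and 1 to 6 of the 8 in experiment 3, 530 to 956 and 0 to 2 for the interaction, 588 to 829 and 1 to 3 between experiments, 1693 to 2488 and 4 to 6 over both, and 2332 to 3342 and 3 to 6 in experiment 1. Plain totals moved mean CPM of Il1a (91.0) and Il1b (1063) in AdCL of experiment 1 by over 1 SD. No paired analysis was possible because the DC numbers differ between all groups. Il18bp rested on 42 to 210 reads per AdCL library.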
